A study of Rattus norvegicus with 2 samples.

Results

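Microglia are the resident macrophages of the brain, and 9 genes that mark them were followed in the hypothalamus of female rats before puberty and at puberty. The genes (Aif1, Cx3cr1, P2ry12, Tmem119, Csf1r, Trem2, Tyrobp, C1qa and C1qb) were chosen by name from the deposited tables, with earlier results of these data known. All 9 were found among the 22777 genes of the mRNA table, as 12 of its 26324 transcripts. The prepubertal group was Sprague Dawley females at postnatal day 25, and the pubertal group was Sprague Dawley females in their first estrus at postnatal day 35. Both groups were killed under pentobarbital sodium, and no other agent or allele is named for them. According to the design text 3 hypothalamuses were taken for a stage, while the tables give a single column for it. How the tissue of the 3 rats was joined is not stated, so a column was treated as 1 library. Replicates were thus lacking, and no difference was tested.

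Microglia depend on signals from other cells. The colony-stimulating factor 1 receptor (Csf1r) binds Csf1 and interleukin 34 and is needed for the survival of the cells, the fractalkine receptor Cx3cr1 binds Cx3cl1 made by neurons, and the purinergic receptor P2ry12 senses ADP and guides the processes of resting cells. Trem2 is a lipid-binding receptor that signals through the adaptor DAP12, the product of Tyrobp, and C1qa and C1qb encode chains of C1q, which starts the classical complement pathway and tags synapses and debris for removal. Aif1 encodes the calcium-binding protein Iba1 of macrophages, and Tmem119 encodes a membrane protein by which microglia are told from other macrophages. The transcription factor PU.1 (Spi1) is a master regulator of the lineage and binds DNA with a GGAA core.

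The promoters were looked at because the 9 genes all had higher values in the same library. RefSeq promoters of build GRCr8 were matched by symbol for 5 of the 9 genes (C1qa, C1qb, Csf1r, Cx3cr1 and Trem2). The 250 bases before the start of C1qa, C1qb and Trem2 are shown 5′ to 3′, with GAGGAA, a short form of the PU.1 site, and GGAAGT, another form of the core, in capitals, each on either strand (TTCCTC and ACTTCC are the same letters read from the opposite strand). Both motifs were searched after the values of the genes were known.
C1qa, GRCr8 chr5:154419934-154420183, minus strand: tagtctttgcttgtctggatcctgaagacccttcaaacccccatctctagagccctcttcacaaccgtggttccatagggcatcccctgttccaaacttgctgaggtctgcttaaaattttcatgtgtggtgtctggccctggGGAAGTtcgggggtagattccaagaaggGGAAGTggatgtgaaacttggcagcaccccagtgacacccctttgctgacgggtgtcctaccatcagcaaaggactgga
C1qb, GRCr8 chr5:154407828-154408077, minus strand: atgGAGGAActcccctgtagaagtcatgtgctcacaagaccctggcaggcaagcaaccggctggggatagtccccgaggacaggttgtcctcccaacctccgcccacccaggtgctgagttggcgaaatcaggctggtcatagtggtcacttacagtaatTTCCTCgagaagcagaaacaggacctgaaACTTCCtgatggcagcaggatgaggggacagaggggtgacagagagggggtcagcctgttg
Trem2, GRCr8 chr9:20151780-20152029, minus strand: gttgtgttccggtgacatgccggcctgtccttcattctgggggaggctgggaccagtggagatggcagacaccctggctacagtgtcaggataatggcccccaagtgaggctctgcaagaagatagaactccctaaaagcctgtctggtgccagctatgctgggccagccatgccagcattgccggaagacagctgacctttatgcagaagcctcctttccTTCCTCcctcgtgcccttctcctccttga
GAGGAA or its reverse complement was found before the start of C1qb, Csf1r and Trem2, 3 of the 5 genes. It was found in 23.3% of all 33469 promoters of the same length. GGAAGT or its reverse complement was found before C1qa and C1qb, 2 of the 5, and in 19.2% of all promoters. C1qa held 2 copies of GGAAGT, ending 74 and 102 bases before the start. In Trem2 the single match ended 24 bases before the start. A match describes the letters only and binding was not measured.

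Expression was measured as FPKM, the fragments of a transcript relative to its length and to the mapped fragments of the library, as estimated by Cuffdiff, and levels of different genes are compared on this scale. Depth was not given, but low FPKM fell on steps of 1 fragment. The steps gave 1.28 times as many fragments in the prepubertal library, 20754000 fragments before puberty against 16182000 at puberty. Of the low values used, 94.3% and 94.5% came out as whole fragments within 0.05. The 9 genes rested on 68 to 1836 fragments before puberty and 70 to 1617 at puberty. Intervals given with FPKM and FPKM ratios are exact 95% intervals of these fragments, which cover counting error only and not the spread between rats. Log2 ratios are log2 of (FPKM + 1) at puberty over (FPKM + 1) before puberty, which draws low values toward 0. The 10 hypothalamic peptide genes were all present, the lowest being Ghrh at 2.20 and 2.77 FPKM, with Pmch (melanin-concentrating hormone) and Oxt (oxytocin) highest, from 1675 to 2723 FPKM and from 411 to 686 FPKM.

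All 9 microglia genes were higher in the pubertal library, with 0 lower, where 48.9% of the 14029 genes with FPKM of at least 1 in 1 library were higher and 51.1% were lower. The median log2 ratio of the 9 was 0.23, against -0.01 for those genes. The summed FPKM of the 9 was 271 before puberty and 324 at puberty, 1.20 times as high. Most of these differences were small. Trem2 alone passed 1.5-fold in FPKM + 1, 1 of 9, where 2.0% of genes (281) did so upward and 2.65% downward. At a log2 ratio of at least 0.32 there were 3 of 9 (Trem2, Aif1 and Tyrobp), where 8.07% of genes passed, and at 2-fold there were 0 of 9, where 0.499% did. In whole tissue more microglia and more RNA per microglial cell cannot be told apart.

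**Figure D1:**
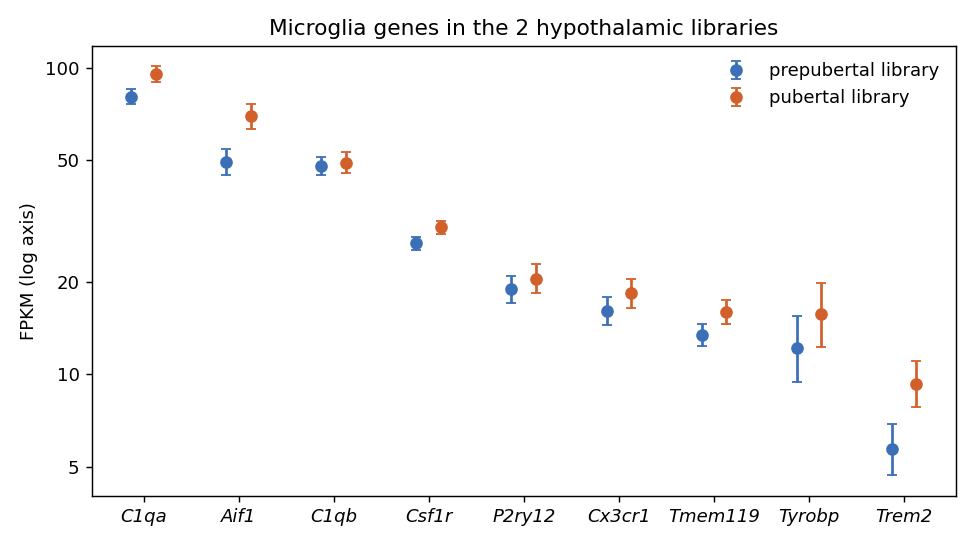
FPKM of the 9 microglia genes (log axis) in the prepubertal (blue) and pubertal (orange) library, 1 library per stage, with exact 95% counting intervals as bars. The genes ran from 5.72 (Trem2) to 80.4 FPKM (C1qa) before puberty and from 9.33 to 95.4 FPKM at puberty, in the same order in both libraries.

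The order of the levels was the same in both libraries. C1qa was highest, then Aif1, C1qb, Csf1r, P2ry12, Cx3cr1, Tmem119, Tyrobp and Trem2. Some neighbours in this order had overlapping counting intervals. Before puberty Aif1 (44.6 to 54.2 FPKM) overlapped C1qb (44.6 to 51.2 FPKM), while at puberty Aif1 (63.4 to 76.1 FPKM) lay above C1qb (45.4 to 52.9 FPKM). P2ry12 and Cx3cr1 overlapped in both libraries, as did Cx3cr1 with Tmem119 and Tmem119 with Tyrobp. Trem2 lay below Tyrobp in both libraries.

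Among the receptors, Trem2 (ENSRNOG00000013578, 1157 nt) was listed at 5.72 FPKM before puberty and 9.33 FPKM at puberty. The pubertal value was 1.63 times as high (interval 1.26 to 2.12), a log2 ratio of 0.62, and 1.77% of genes had a ratio as high or higher. Trem2 had the highest ratio of the 9 and also the lowest level. Its adaptor Tyrobp (ENSRNOG00000020845, 525 nt) was listed at 12.2 and 15.8 FPKM, an FPKM ratio of 1.29. With 68 and 70 fragments the interval of Tyrobp ran from 0.912 to 1.83, so that no difference was detectable at this depth. Tyrobp FPKM was 2.13 times that of Trem2 before puberty and 1.69 times at puberty.

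Csf1r (ENSRNOG00000018414, 3566 nt), the longest of the transcripts, went from 26.7 to 30.1 FPKM, 1.13 times as high (interval 1.05 to 1.21). Its log2 ratio was 0.17. Cx3cr1 (ENSRNOG00000018509) was at 16.1 FPKM before puberty and 18.4 FPKM at puberty, an FPKM ratio of 1.14 (0.977 to 1.33). P2ry12 (ENSRNOG00000013902) was at 19.0 and 20.5 FPKM, an FPKM ratio of 1.08 (0.932 to 1.26). For these last 2 receptors the interval included 1, so a difference was not detectable.

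Of the 3 ligands of these receptors, 1 was higher and 2 were lower at puberty (median log2 ratio -0.04, but 0.30 with equal Actb). Cx3cl1, the ligand of Cx3cr1, was listed at 54.7 FPKM before puberty and 33.9 FPKM at puberty, 1.61-fold lower and a log2 ratio of -0.67. It was the only ligand of 3 past 1.5-fold. Cx3cl1 FPKM was thus 3.39 times that of Cx3cr1 before puberty and 1.85 times at puberty. For Csf1r, the ligand Il34 was at 21.5 and 22.4 FPKM (ratio 1.04, 0.919 to 1.18) and Csf1 at 4.69 and 4.55 FPKM (ratio 0.970, 0.826 to 1.14). Il34 was the more abundant of these in both libraries, 4.59 times Csf1 before puberty and 4.92 times at puberty.

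Aif1 (ENSRNOG00000000853) had the next highest ratio after Trem2, from 49.2 to 69.5 FPKM, 1.41 times as high (1.24 to 1.61) and a log2 ratio of 0.49. It is the only one of the 9 genes with several transcripts, 4 in all. The 649 nt transcript ENSRNOT00000001135 carried 94.4% of the gene's FPKM before puberty and 93.0% at puberty, from 46.5 to 64.6 FPKM. The 812 nt transcript ENSRNOT00000076331 went from 1.84 to 3.65 FPKM. The 1504 nt and 710 nt transcripts were listed below 1 FPKM in both libraries. Tmem119 (ENSRNOG00000000700, 2167 nt) went from 13.5 to 16.0 FPKM, 1.19 times as high (1.05 to 1.34).

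The ratios of the C1q chains had overlapping intervals. C1qa (ENSRNOG00000012807) was at 80.4 FPKM before puberty and 95.4 FPKM at puberty, 1.19 times as high (1.10 to 1.29). C1qb (ENSRNOG00000012749) was at 47.8 and 49.0 FPKM, a ratio of 1.03 (0.925 to 1.14), the lowest of the 9. C1qc, the remaining chain, was at 27.1 and 30.3 FPKM, a ratio of 1.12 (0.992 to 1.26). In RefSeq C1qb, C1qc and C1qa follow each other among protein-coding genes, with no other between them. One C1q molecule holds its 3 chains in equal numbers, and in these libraries C1qa FPKM was 2.96 and 3.15 times that of C1qc. The intervals of Trem2 and Aif1 lay above that of C1qb, on counting error alone.

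**Figure D2:**
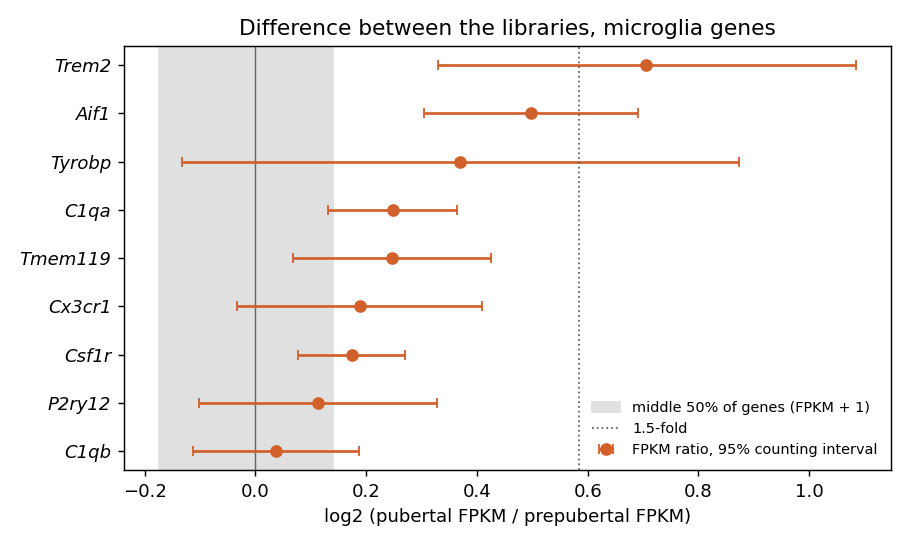
Log2 of the FPKM at puberty over the FPKM before puberty for the 9 microglia genes (points) with exact 95% counting intervals (bars). The grey band is the middle 50% of the 14029 genes with FPKM of at least 1 in 1 library, -0.17 to 0.14 in log2 of FPKM + 1, and the dotted line marks 1.5-fold. The intervals of Trem2, Aif1, C1qa, Tmem119 and Csf1r lie above 0, and those of Tyrobp, Cx3cr1, P2ry12 and C1qb include it.

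These differences depended on how the libraries were put on one scale. The deposited FPKM showed all 9 genes higher, and 5 of 9 intervals lay above 1 (Aif1, Tmem119, Csf1r, Trem2 and C1qa) and 0 below. Of the 13606 genes of at least 1 FPKM for which such an interval could be had, 19.5% lay above 1 and 23.9% below. Genes often used as references differed between the libraries themselves. Actb was lower at puberty, from 763 to 576 FPKM (log2 ratio -0.40), and Ywhaz from 681 to 575 FPKM (-0.24). The other 6 were higher, with log2 ratios that included 0.06 for Tbp, 0.13 for Gapdh, 0.21 for Ppia, 0.26 for Hprt1 and 0.41 for B2m, which encodes the light chain of MHC class I. When the pubertal library was scaled to the median of the 8 reference genes, which moved the median of all genes to -0.14, P2ry12 and C1qb had log2 ratios of -0.03 and -0.11. The other 7 genes were still higher, as were 26.2% of the genes with FPKM of at least 1. Aif1 and Trem2 had intervals above 1, as did 6.78% of all genes with an interval. Scaling to equal Gapdh gave the same 2 genes below 0, where 28.7% of genes were higher. It left Aif1, Trem2 and C1qa with intervals above 1, against 7.73% of genes. Over the 9 genes the median came to 0.11 with equal Gapdh and to 0.09 with the 8 reference genes. Scaling to equal Actb moved the median of all genes to 0.36 and that of the 9 genes to 0.62, and all 9 intervals then lay above 1, as did 70.8% of genes, while 89.7% of genes were higher. With equal medians 6 intervals did, Cx3cr1 being added, against 26.5% of genes.

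**Figure D3:**
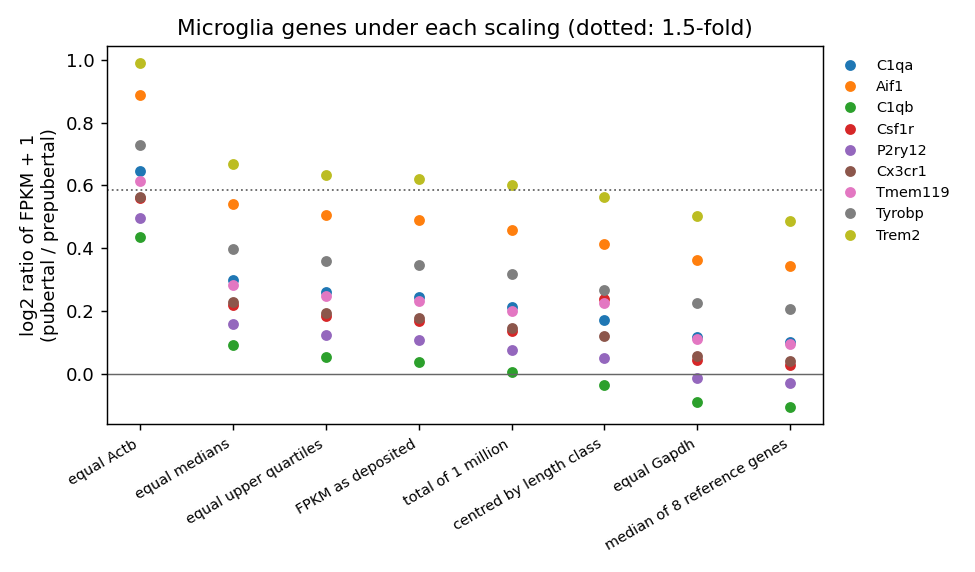
Log2 ratio of FPKM + 1 (puberty over before puberty) of each microglia gene (coloured points) under each way of scaling the libraries, with the dotted line at 1.5-fold. All 9 points lie above 0 with FPKM as deposited. C1qb falls below 0 after centring by length class, and P2ry12 and C1qb do so after scaling to Gapdh or to the 8 reference genes, while Trem2 (0.49 to 0.99) and Aif1 (0.34 to 0.89) stay highest.

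The ratio of a gene also varied with the length of its transcripts, and most of the 9 genes are short. Over 10 length classes the median log2 ratio went from 0.08 for genes of 168 to 752 nt to -0.13 for genes of at least 4381 nt. In the classes that hold Tyrobp, Aif1, C1qa, C1qb, Cx3cr1, P2ry12 and Trem2, between 58.6% and 62.8% of genes were higher at puberty. In the class of Csf1r, 3354 to 4380 nt, this share was 36.6% and the class median was -0.07. With each ratio centred on the median of its class, 8 of the 9 genes were above 0, with a median of 0.22. Csf1r then had 0.24, Tmem119 0.22, Aif1 0.41 and Trem2 0.56, the last no longer past 1.5-fold, and C1qb had -0.04. The part of length in the differences was otherwise not tested.

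**Figure D4:**
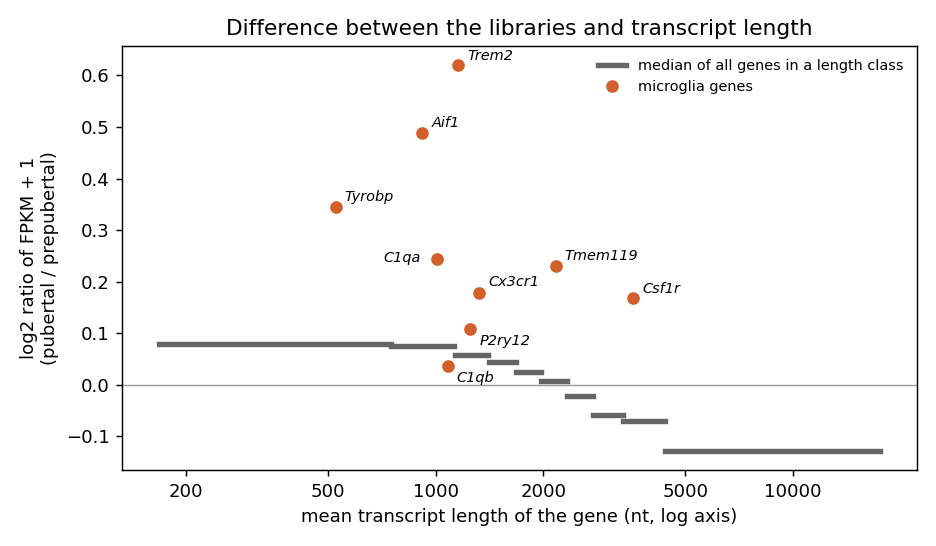
Log2 ratio of FPKM + 1 (puberty over before puberty) against the mean transcript length of the gene (log axis). Grey bars are the medians of all genes in 10 length classes, which go from 0.08 to -0.13 with length, and orange points are the microglia genes, of which C1qb alone lies below the median of its class.

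Another 29 genes known from microglia were examined as a list, also chosen with earlier results of these data known. Of these, 19 were higher and 10 lower at puberty, 65.5% higher, with a median log2 ratio of 0.18, and their summed FPKM went from 282 to 353. The median was 0.06 after scaling to the 8 reference genes and 0.15 after centring by length class. The intervals of 10 of the 29 lay above 1 and that of 1 lay below. The highest was Ctss, the lysosomal protease cathepsin S, from 111 to 153 FPKM (ratio 1.38, 1.31 to 1.46). Of the 29, 2 passed 1.5-fold in FPKM + 1, both upward. Fcer1g, the common chain of Fc receptors and like Tyrobp a signalling adaptor, went from 7.97 to 12.99 FPKM (ratio 1.63, 1.15 to 2.31). Ly86, which forms a complex with Cd180 on myeloid cells, went from 1.91 to 3.78 FPKM (1.98, 1.19 to 3.33). The interval below 1 was that of P2ry6, a receptor of UDP, at 1.64 and 1.09 FPKM (0.665, 0.439 to 0.991), named after its values were seen. Spi1 itself was at 1.60 and 1.13 FPKM on 36 and 20 fragments (ratio 0.708, 0.388 to 1.26), a gene named here because its motif was searched.

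Some genes next to the 9 in the genome are microglial as well, and the neighbours given here were named after their values were seen. P2ry13, another ADP receptor and the neighbour of P2ry12, went from 5.23 to 7.55 FPKM, a ratio of 1.44 (1.06 to 1.97). Selplg, which encodes the selectin ligand PSGL-1 and lies beside Tmem119, went from 6.87 to 8.94 FPKM, a ratio of 1.30 (1.03 to 1.65). Hcst, which lies next to Tyrobp and encodes the related adaptor DAP10, rested on 2 and 1 fragments, at 0.578 and 0.359 FPKM (ratio 0.621, 0.0105 to 11.9). Other neighbours went either way. Log2 ratios were 0.28 for Iscu beside Tmem119, an iron-sulfur cluster scaffold, and -0.31 for Pdgfrb beside Csf1r, a receptor of pericytes. Ncr3 beside Aif1 had 0.34 at below 1 FPKM in both libraries. Epha8 beside C1qa had -0.49, the largest difference among the neighbours looked at.

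Downstream of Trem2 and Tyrobp, 9 kinases, phosphatases and other signalling genes had 4 higher and 5 lower at puberty. Their median log2 ratio was -0.10, with 0 past 1.5-fold in FPKM + 1. Lyn, a Src family kinase, was highest, at 5.13 and 6.42 FPKM (log2 ratio 0.28, FPKM ratio interval 1.07 to 1.46), followed by Inpp5d, a lipid phosphatase that restrains the pathway, at 2.94 and 2.45 FPKM (0.835, 0.691 to 1.01). Summed FPKM of the 9 signalling genes was 15.8 and 17.6.

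The complement list besides C1qa and C1qb held 17 genes, 8 higher and 9 lower, with a median log2 ratio of -0.01. Cd59, an inhibitor of the terminal attack complex that many brain cells make, was highest, from 153 to 179 FPKM, followed by C1qc. Serping1, the inhibitor of the C1 proteases, was the only one past 1.5-fold in FPKM + 1 (log2 ratio -0.86). It went from 2.42 to 0.881 FPKM, 2.74-fold lower, on 77 and 22 fragments. C2 is listed under 3 gene identifiers and C4a and C4b are near-identical copies, so their values are uncertain.

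Genes of reactive or phagocytic microglia were split between the directions. Of 20, 10 were higher, 9 lower and 1, Ccl3, was listed at 0 in both libraries, with a median log2 ratio of 0.00. In FPKM + 1, 0 were past 1.5-fold. Of the 20, 12 reached 1 FPKM, and lower values are drawn toward 0 on this scale. Apoe, a lipid carrier that astrocytes make in quantity and a ligand of Trem2, was at 4231 and 4648 FPKM (ratio 1.10), and Ctsb, a lysosomal protease, at 333 and 385 FPKM (1.16). Of the cytokines, Tnf was at 0.135 and 0.302 FPKM and Il1b at 0.180 and 0.0572 FPKM, on at most 7 fragments each. Both were named after their values were seen.

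**Figure D5:**
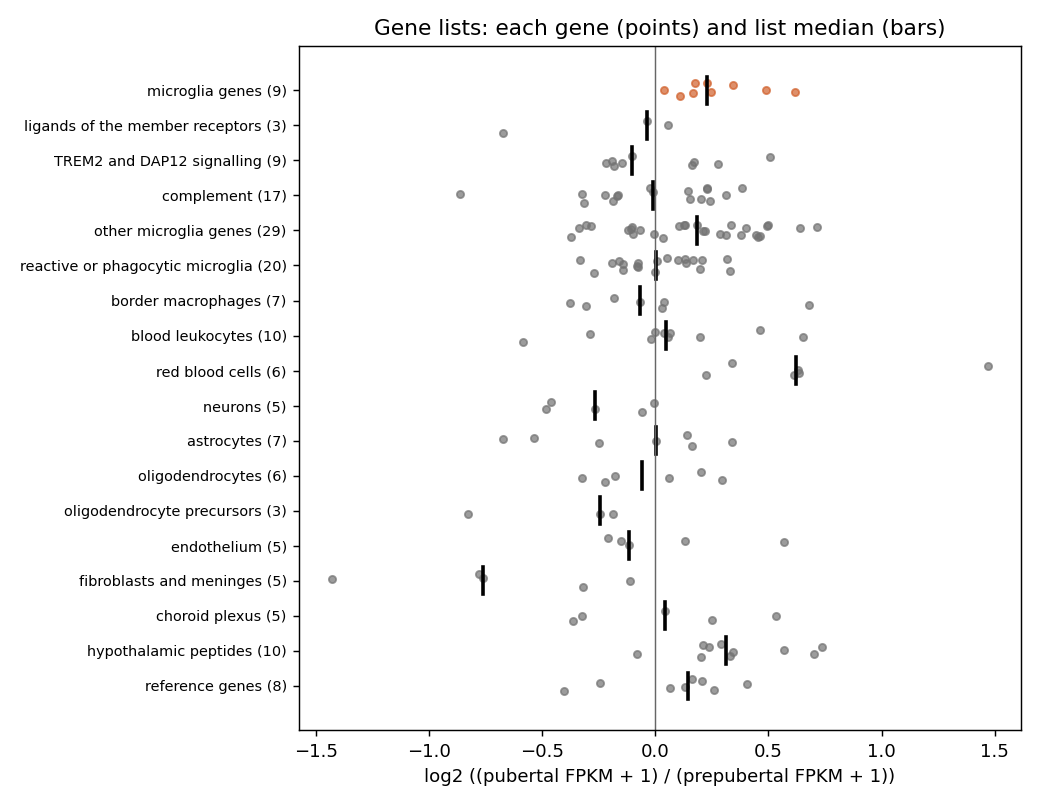
Log2 ratio of FPKM + 1 (puberty over before puberty) of each gene (points) and the median (bars) of the microglia genes (orange) and 17 other gene lists (grey), with the number of listed genes in parentheses. All 9 microglia genes and all 6 red blood cell genes lie above 0, and the genes of neurons, oligodendrocyte precursors and fibroblasts and meninges lie below 0 with FPKM as deposited, though the medians of neurons and precursors are 0.14 and 0.15 with equal Actb.

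Other macrophages and blood cells could also carry some of the 9 genes. Of 7 listed genes of border macrophages, 3 were higher and 4 lower, with a median log2 ratio of -0.07 (0.06 after centring by length class) and a summed FPKM of 17.1 and 17.0. The intervals of 2 lay below 1 and 0 above, those of Mrc1, the mannose receptor, from 4.78 to 3.67 FPKM (0.661 to 0.890), and of Lyve1, a hyaluronan receptor named after its values were seen, from 1.82 to 1.18 FPKM (0.456 to 0.903). Pf4, a chemokine on a 318 nt transcript that platelets also hold, went from 2.92 to 5.27 FPKM and was the only one past 1.5-fold in FPKM + 1. It is too short for an interval, and its higher value at puberty is part of the summed FPKM of this list. Of 10 listed genes of blood leukocytes, 6 were higher and 3 lower, and 2 reached 1 FPKM. Their median log2 ratio was 0.05, but 0.28 with a pseudocount of 0.1, under which that of the 9 microglia genes was 0.25. These were S100a8, at 12.3 and 12.1 FPKM, and S100a9, from 5.98 to 9.96 FPKM and past 1.5-fold, both made by neutrophils. S100a9 rested on 27 and 36 fragments, and the interval of its FPKM ratio, 0.984 to 2.85, included 1. Cd79a of B cells was listed at 0 in both libraries, and Cd3e of T cells had 8 fragments before puberty and was listed at 0 at puberty. All 6 genes of red blood cells were higher at puberty, with a summed FPKM of 6839 and 13086 and a median log2 ratio of 0.62. Hbb went from 2130 to 5898 FPKM, Hba1 from 3100 to 4817 FPKM, Hba2 from 1162 to 1802 FPKM and Alas2 from 13.9 to 21.9 FPKM, all past 1.5-fold. Hba1 and Hba2 are near-identical copies and can have shared fragments. The 2 other genes of this list, Hbb-b1 and Slc4a1, both had an FPKM ratio of 1.26. Transcripts of red blood cells were thus higher in the same library as the microglia genes, and their part in the result was not tested.

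Genes of the other brain cells gave the setting. With equal Actb the median of each list in the plot of gene lists was above 0, apart from fibroblasts and meninges at -0.39, and among them oligodendrocytes had 0.34 and endothelium 0.29. All 5 neuron genes were lower at puberty with FPKM as deposited (median -0.27, but 0.14 with equal Actb), with Snap25 at 654 and 628 FPKM and Eno2 at 544 and 541 FPKM. Of 7 astrocyte genes 4 were higher and 3 lower (median 0.00). S100b was at 693 and 764 FPKM and Slc1a2 at 374 and 258 FPKM, and Gja1, a gap junction protein, was past 1.5-fold downward, from 106 to 66.3 FPKM. Of 6 oligodendrocyte genes 3 were higher and 3 lower (median -0.06), with Mbp at 4633 and 5335 FPKM. All 3 genes of oligodendrocyte precursors were lower as well (median -0.24, but 0.15 with equal Actb), Gpr17 from 38.2 to 21.1 FPKM, past 1.5-fold, and Pdgfra from 32.8 to 27.6 FPKM. Endothelial genes had 2 higher and 3 lower (median -0.11), with Cldn5 at 70.9 and 65.5 FPKM and Slco1a4 at 29.0 and 43.5 FPKM. Choroid plexus genes had 3 higher and 2 lower (median 0.04), with Ttr at 29.0 and 23.0 FPKM and Folr1 at 2.37 and 3.01 FPKM. All 5 genes of fibroblasts and meninges were lower (median -0.76), and Col1a1, Col1a2 and Col3a1 were past 1.5-fold, at 9.57 and 2.93, 15.8 and 8.76, and 14.6 and 8.19 FPKM. Of the 10 hypothalamic peptide genes 9 were higher (median 0.31), Oxt and Pmch past 1.5-fold. FPKM is a share of the library, so the values of one cell type also depend on those of the others.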

How the data were processed

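RNA was taken from the hypothalamus of female Sprague Dawley rats, depleted of ribosomal RNA and made into strand-specific libraries. The authors ran TopHat on the read pairs, built transcripts by means of Cufflinks and Scripture, and took FPKM from Cuffdiff. Deposited FPKM thus carry a correction for length and depth. The labels name build Rnor_5.0 and Cuffdiff 2.1.1, while the methods name an annotation of a later build, so the build behind the values is uncertain. The comparison table also holds the authors' ratios, p-values and q-values, which were not used. Gene names and transcript lengths came from that table. FPKM of the mRNA table was summed per gene, and log2 ratios used a pseudocount of 1. Fragments were derived from the depth and the nt taken off the length (256.5 and 250.5) that made low FPKM of genes with 1 transcript of 500 to 4000 nt whole numbers, a step tested on simulated data. Intervals are exact Poisson intervals for a level and conditional binomial intervals for a ratio. With 1 column per stage, no test was made. Other pseudocounts, scalings, tables and transcript choices were tried, and scaling to Gapdh or to the 8 reference genes and centring by length were added after seeing the data. The 9 genes and the lists were chosen with earlier results of these data known. Of each other list, genes past 1.5-fold in FPKM + 1 and the pair with the highest FPKM were named, beside ligands, C1qc and reference genes, except a few that are not reported here. Ccr2 and Cbr2 matched no gene name. Sequences are from RefSeq. The software was matplotlib 3.10.9, scipy 1.17.1, pandas 2.3.3 and numpy 2.4.6 under Python 3.11.15.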

Additional observations from a re-analysis of the deposited data

How the results depend on the processing

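For the 9 genes, scaling to equal Actb moved the values most. With the libraries scaled to equal Actb, the log2 ratios were 0.89 for Aif1, 0.56 for Cx3cr1, 0.50 for P2ry12, 0.62 for Tmem119, 0.56 for Csf1r, 0.65 for C1qa and 0.44 for C1qb, with a median over the 9 genes of 0.62 and 5 past 1.5-fold, where 16.5% of all genes were past it upward. With equal Gapdh, Csf1r had 0.042 and C1qa 0.12, and with the median of the 8 reference genes they had 0.026 and 0.10. The number past 1.5-fold was 0 under both, where 1.33% and 1.27% of all genes were past it upward, and 0 after centring by length class. It was 3 at the lower threshold of 0.32 in log2, where 8.07% of genes passed, and 0 at a fold of 2, where 0.499% did. A pseudocount of 0.1, equal medians, equal upper quartiles, equal totals, the comparison table and the highest transcript alone kept all 9 genes higher, each ratio within its counting interval. Of the medians of other lists under the alternatives run for them, 24 moved by more than the counting error of a typical single gene of the list. The other 61 did not. This allowance was 3.18 in log2 for blood leukocytes, so an unmoved median says little for lists with few fragments. No paired analysis was possible because each stage has 1 column. Differences within the counting intervals could not be detected at this depth, and the spread between rats is unknown.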
